A study of Homo sapiens with 13 samples.

Results

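Interferon response genes are the genes whose transcripts accumulate when cells sense interferon. A list of 36 of them was followed through growth factor stimulation of MCF10A, a spontaneously immortalized line of human mammary epithelial cells. A platform gene symbol was carried by at least 1 probe set for 35 of the 36, out of 11963 genes with a probe set in the series, and STAT2 was not analysed here. Each gene was represented by its brightest probe set, the one with the highest mean over the 13 arrays of log2 of signal plus 6, a choice that did not use the groups. Of the 35, 28 had a mean signal of at least 20 and were tested among 7731 genes. The other 7 (CXCL11, IFIT1, IFIT2, ISG20, MX1, MX2 and OAS2) were dim, with a mean signal under 20, and fell below the filter, so the 28 are not all of the list. The brightest of the dim genes were IFIT1 at 19.5, ISG20 at 18.7 and IFIT2 at 18.6, and the dimmest of the tested ones were IFI44L at 22.9 and IFI27 at 25.9.

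All cells had been deprived of serum for 24 h. They were then left unstimulated (1 array), or given EGF, a ligand of the epidermal growth factor receptor, or the mixture that the labels call serum, for 20, 40, 60, 120, 240 or 480 min (1 array per stimulus and time). That mixture combined insulin, hydrocortisone, cholera toxin and heat-inactivated horse serum, and it is called serum below. The EGF array of 20 min is described as 40 min in 1 of its labels. No array was a replicate of another, so arrays of neighbouring times (early, 20 to 60 min, and late, 120 to 480 min) or the 2 arrays of a time stood in for replicates, and the p-values cover no more than the scatter among these 13 arrays. The unstimulated condition had a single array, whose spread was taken to be that of the stimulated ones. None of the arrays came from interferon-treated cells, so the list had no positive control here.

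Values are MAS5 signals, an array intensity on a linear scale on which the authors had set every array to the same trimmed mean (150.04 to 150.05), and the number of arrays limits their precision. Signals under 20 made up 33.3% of the serum 20 min array and 36.7% to 40.0% of each other array. Basal epithelial markers matched the labelled line: all 6 with a probe set had mean signals of at least 100, as did 5 of 5 general epithelial markers. Of the markers of other cells, CD14 (170), TCF4 (87.7) and DCN (267) were the brightest of the leukocyte, plasmacytoid dendritic cell and fibroblast lists, and 0 of 4 endothelial markers had a mean signal of 20. The summed leukocyte markers ran from 146.4 to 288.4 over the EGF arrays and from 150.4 to 346.5 over the serum arrays, and those of plasmacytoid dendritic cells from 93.3 to 140.3 and from 67.4 to 117.7. On the unstimulated array these sums were 229.3 for leukocytes and 154.5 for plasmacytoid dendritic cells, the latter above every stimulated array. The part of such cells in the results below was not tested. In bulk RNA, fewer cells of a type and less RNA per cell cannot be told apart. Differences below are log2 differences after quantile normalization, each with its standard error (SE). Tests used limma, are two-sided and were adjusted over the 7731 genes by Benjamini and Hochberg, with a threshold of 0.05.

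Type I interferons act through receptor-bound JAK kinases on a complex that holds STAT2 and IRF9 and binds the interferon-stimulated response element (ISRE). Interferon gamma acts on genes with a gamma-activated site (GAS) and induces IRF1, which binds ISRE-like sequences itself. The products include antiviral effectors such as the IFIT, OAS and MX proteins, membrane proteins of the IFITM family and BST2, components of peptide loading for MHC class I (TAP1, TAP2, PSMB8 and PSMB9), guanylate-binding proteins and the chemokines CXCL10 and CXCL11.

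The sequence 250 bases before the start was on hand for 27 of the 36 genes, from RefSeq (GRCh38.p14). Matches were searched on both strands for an ISRE core (GAAA, any 2 bases, GAAA), a GAS (TTC, any 3 bases, GAA) and an NF-kB site (GGGA, any 2 bases, TTCC). The ISRE core was found in 17 of the 27 windows and in 3.07% of 27305 windows of all genes. The GAS was found in 8 of 27 (6.78% of all windows), and the NF-kB motif in 4 of 27 (1.42%), those of CXCL10, CXCL11, OAS3 and TAP1. Some matches overlap, such as the 2 ISRE cores of BST2 and the GAS and ISRE of IFI27. A match describes the letters and does not show binding, and no factor's binding was measured. The windows of CXCL10, CXCL11 and GBP1, whose late signals were higher in serum than in EGF on average, and of IFI44L, which lay below the unstimulated array throughout, are shown 5′ to 3′ on the gene's strand, with the matches in capitals.
CXCL10: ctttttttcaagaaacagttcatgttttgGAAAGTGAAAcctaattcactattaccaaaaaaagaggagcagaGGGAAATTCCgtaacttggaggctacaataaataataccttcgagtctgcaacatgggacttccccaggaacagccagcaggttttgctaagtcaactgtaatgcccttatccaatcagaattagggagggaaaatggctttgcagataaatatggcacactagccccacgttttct
CXCL11: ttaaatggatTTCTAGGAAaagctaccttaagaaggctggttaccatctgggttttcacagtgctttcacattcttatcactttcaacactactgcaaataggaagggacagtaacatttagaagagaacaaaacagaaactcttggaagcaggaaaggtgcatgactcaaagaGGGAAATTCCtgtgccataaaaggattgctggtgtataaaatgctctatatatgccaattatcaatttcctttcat
GBP1: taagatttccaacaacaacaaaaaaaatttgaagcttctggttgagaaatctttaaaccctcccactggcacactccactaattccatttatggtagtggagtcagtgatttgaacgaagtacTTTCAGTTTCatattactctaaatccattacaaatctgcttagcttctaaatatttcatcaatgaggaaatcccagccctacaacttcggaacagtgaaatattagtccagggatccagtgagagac
IFI44L: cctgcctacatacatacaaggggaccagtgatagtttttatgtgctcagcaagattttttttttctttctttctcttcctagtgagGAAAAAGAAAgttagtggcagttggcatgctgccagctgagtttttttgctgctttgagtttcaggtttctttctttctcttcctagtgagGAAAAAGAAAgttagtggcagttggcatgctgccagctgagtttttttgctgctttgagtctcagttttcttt
The CXCL10 window (chr4:76023498-76023747, minus strand) holds an ISRE core from 221 to 212 bases before the start and an NF-kB motif from 177 to 168. That of CXCL11 (chr4:76036071-76036320, minus strand) holds a GAS at 240 to 232 and the same NF-kB letters at 76 to 67, with no ISRE core of this spelling. GBP1 (chr1:89065209-89065458, minus strand) has 1 ISRE core, on the opposite strand, at 127 to 118. IFI44L (chr1:78620198-78620447, plus strand) has ISRE cores at 164 to 155 and at 73 to 64.

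Of the 35 genes, 2 had a mean signal over 1000, IFITM2 and IFITM3, which encode membrane proteins that restrict virus entry. Both are read by probe sets of the _x_at kind, whose probes can match related transcripts, so their signals may be shared with each other. The transcription factors and peptide transporters lay between, and 7 of the antiviral and chemokine genes were dim. Levels of different probe sets depend on their probes and are not ranked against each other.

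**Figure D1:**
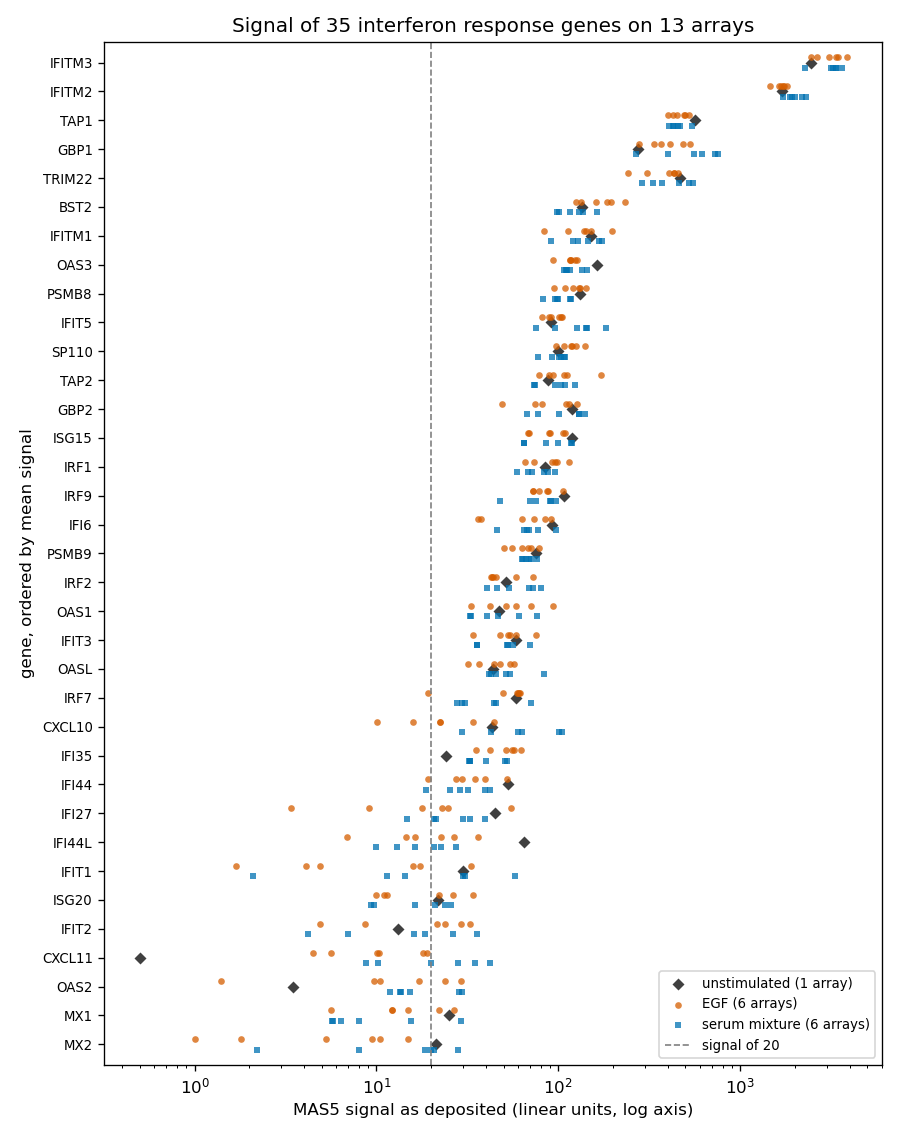
Deposited MAS5 signal (log axis) of the 35 interferon response genes on 13 arrays, ordered by mean, with a point for each unstimulated, EGF or serum array and a line at a signal of 20. IFITM2 and IFITM3 lie above 1000 on every array, and the 7 dim genes cross the line at 20.

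Against the unstimulated array, no tested member passed the threshold with limma at any of the 6 times. The share of all genes called was 0.0259% at 20 min, 0.0776% at 40 and at 60 min, 0.0259% at 120 min and 0% at 240 and 480 min, so these contrasts called few genes of any kind. At an unadjusted p under 0.05, members numbered 1, 3, 2, 5, 2 and 7 at the 6 times, against 5.91%, 7.05%, 7.44%, 9.26%, 9.74% and 11.8% of all genes. Their median difference lay between -0.19 (240 min) and 0.08 (120 min). TRIM22 was called at 480 min when the variances were moderated robustly along a trend, a setting that called 46 genes there. Nor was any of the 28 called for the early arrays (3 at an unadjusted p under 0.05 against 7.59% of all genes, 0% of all genes called) or the late arrays (4 unadjusted against 11.7%, 0.0129% called). IFI44L, described next, is among both of these unadjusted counts and among those of 120 and 480 min. Its place in them is not independent of the filter, which it passed only through the unstimulated array.

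IFI44L (probe set 204439_at), an interferon-induced gene of the IFI44 family, had its highest signal on the unstimulated array, 64.6. It measured 36.4, 22.6, 26.8, 14.6, 16.3 and 6.9 after EGF and 9.9, 27.3, 20.7, 13, 16.4 and 22.6 after serum, from 20 to 480 min. All 12 stimulated arrays lay below the unstimulated one, with serum 20 min and EGF 480 min lowest. The late arrays differed from it by -1.62, given as a description with no test. IFI44L passed the filter of 4.68 on mean log2 signal only through the unstimulated array: its mean was 4.71 over the 13 arrays and 4.60 over the 12 stimulated ones, so it could enter the 28 only by being higher unstimulated. The same one-sided placing below was seen for OAS3, a sensor of double-stranded RNA that makes 2-5A, and for TAP1, the peptide transporter subunit, as for 7.55% of all genes. For OAS3 the signal was 163.7 unstimulated and 93.8 to 143 after stimulation, with an early difference of -0.46 (SE 0.17, adjusted p = 0.534). For TAP1 it was 561.4 unstimulated and 401.1 to 546.8 after, with a late difference of -0.42 (SE 0.15, adjusted p = 0.316). Each of these 3 placings rests on the single unstimulated array.

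IFI35, which encodes a leucine-zipper protein induced by interferon, lay on the other side. Its signal was 24 unstimulated, 57.3, 51.5, 42.2, 62.3, 35.3 and 55.7 after EGF, and 32.8, 32.4, 50.9, 52.1, 32.7 and 40.3 after serum. All 12 stimulated arrays were above the unstimulated one, as for 7.57% of all genes, and EGF 120 min was highest. The late difference was 0.91 (SE 0.31, 1.88-fold, adjusted p = 0.304). IFI27, a small mitochondrial and membrane protein gene, measured 44.9 unstimulated, 55.1, 17.8, 9.1, 24.6, 23 and 3.4 after EGF and 32.5, 21.3, 29.8, 39.5, 20.7 and 14.7 after serum. Its EGF array of 480 min was lowest and several of its arrays lie under 20. The late difference was -0.88 (SE 0.69, adjusted p = 0.666), and at 480 min it was -1.66 (SE 0.56, adjusted p = 0.35). IFI6, a mitochondrial antiviral protein gene, measured 92.1 unstimulated and 36 and 37.5 on the EGF arrays of 240 and 480 min, its lowest. The other 10 stimulated arrays lay between 46.1 and 97.7. Its late difference was -0.57 (SE 0.36, adjusted p = 0.578).

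IFI44, the neighbour of IFI44L in name, had a signal of 52.9 unstimulated and 18.7 to 52.2 on the stimulated arrays, with an early difference of -0.50 (SE 0.34, adjusted p = 0.799). IRF9, the DNA-binding partner of STAT2, measured 106.9 unstimulated and 72.8 and 47.6 at 480 min of EGF and of serum. Its difference at 480 min was -0.66 (SE 0.22, adjusted p = 0.342). On single arrays a difference of at least 2-fold from the unstimulated array was seen for 0 to 4 of the 28 members in either direction, against 0.983% to 3.09% of all genes. The 4 at 120 min of serum were CXCL10, GBP1, IFI35 and IFIT5, all higher (2.38% of all genes). The 4 lower at 60 min of EGF were CXCL10, IFI27, IFI44 and IRF7 (1.25%), and the 4 lower at 480 min of EGF were CXCL10, IFI27, IFI44L and IFI6 (2.24%). IFI44L could enter the 28 only by being higher unstimulated, so its place among the lower genes is not independent of the filter. These single-array differences have no replicate.

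**Figure D2:**
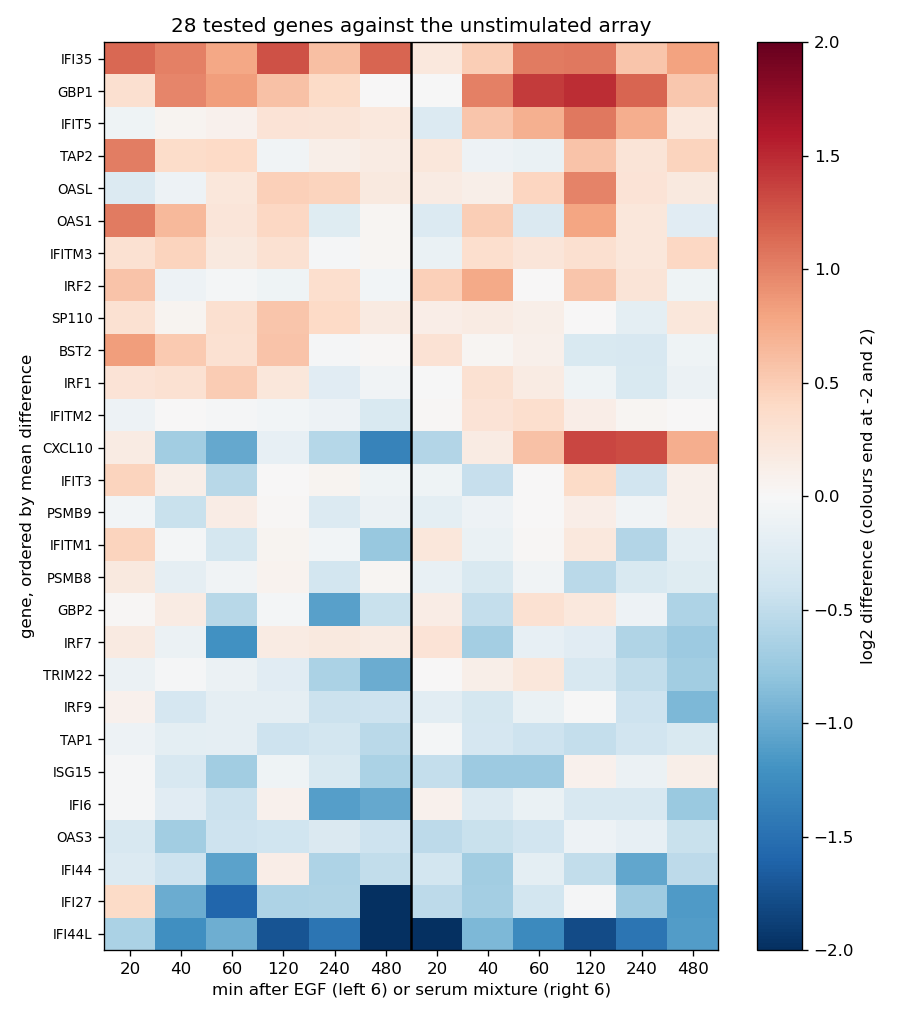
Log2 difference from the unstimulated array (colour) for the 28 tested genes on the 6 EGF and 6 serum arrays, ordered by mean difference. IFI35 is above 0 on all 12 arrays and IFI44L below 0 on all 12, while CXCL10 is mostly blue after EGF and mostly red after serum.

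From early to late arrays, TRIM22 fell, and it was the only one of the 28 members past the threshold over both stimuli (3.47% of all genes were called, 1.79% lower). TRIM22 encodes a tripartite-motif protein that restricts several viruses. Its signal (probe set 213293_s_at) was 465 unstimulated, 435.2, 456.8, 430.8, 406.8, 307.8 and 241.2 after EGF, and 461.7, 521.2, 548.7, 372.6, 329.8 and 288 after serum. The 6 early arrays stayed near or above the unstimulated level, the 6 late arrays lay below it, and the 6 early and 6 late arrays did not overlap, a placing below that 1.63% of all genes showed. No member had all late arrays above all early ones (1.15% of all genes). The late minus early difference was -0.57 (SE 0.12, 1.49-fold lower, 95% interval -0.85 to -0.30, adjusted p = 0.0335 with limma). It was -0.53 in EGF (SE 0.17, adjusted p = 0.223) and -0.62 in serum (SE 0.17, adjusted p = 0.0904). The call was close to the threshold: leaving out any 1 of the EGF or serum arrays other than the 2 of 120 min moved the adjusted p to between 0.0518 and 0.082. It was also lost without the filter on dim genes (0.0862), without both arrays of 20 min (0.0865) and with a minimum of 1.5-fold.

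Over the 28 members the late minus early median was -0.09, against 0.02 for all genes, with 18 below 0 and 10 above. At an unadjusted p under 0.05 there were 6 members, against 23.9% of all genes: TRIM22, IRF1, BST2 and TAP1 lower, and ISG15 and OASL higher. IRF1, the first-wave transcription factor of the interferon gamma response, measured 84.3 unstimulated, 96.5, 98.3, 115, 92.3, 65.5 and 73.6 after EGF, and 83.8, 96.4, 88, 71.8, 59.6 and 68 after serum. All late arrays but EGF 120 min were lower than all early arrays. The late minus early difference was -0.35 (SE 0.10, 1.28-fold, adjusted p = 0.066). It passed without quantile normalization (289 genes called) and with a stricter filter (576 called, 16 members tested), settings that called IRF1 and TRIM22. Without the EGF array of 120 min, 330 genes were called, and the members among them numbered 4 (BST2, IFI6, IRF1 and TRIM22).

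Within EGF no member was called (5 at an unadjusted p under 0.05 against 14.5% of all genes, 0.259% of all genes called, median -0.19), and within serum none either (5 unadjusted against 20.2%, 1.42% called, median -0.11). ISG15, a ubiquitin-like modifier and one of the strongest interferon-induced transcripts, measured 118.8 unstimulated. Its signal was 109.5, 88.9, 67.9, 105.5, 90.2 and 69 after EGF and 85.6, 64.4, 64.4, 118.7, 99.7 and 118.1 after serum. In serum the 3 late arrays were all above the 3 early ones, a placing whose share over all genes was not counted. In EGF early and late overlapped. The serum late minus early difference was 0.67 (SE 0.18, 1.59-fold, adjusted p = 0.0845), and the difference between the stimuli in this change was -0.67 (SE 0.22, adjusted p = 0.382). In serum ISG15 was called with the stricter filter (295 genes called), and ISG15 and TRIM22 with a variance trend (419 called). OASL, an OAS-like protein gene without synthetase activity, measured 44 unstimulated, 32 to 57.4 after EGF and 41.8 to 83 after serum, with its highest signal at 120 min of each. Its late minus early difference was 0.34 (SE 0.15, adjusted p = 0.198). The second OASL probe set, 205660_at, was instead highest at 20 min of EGF (37.6) and at 240 min of serum (48.5). It gave 0.36 from early to late (SE 0.25, adjusted p = 0.411 with limma over 13329 probe sets).

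**Figure D3:**
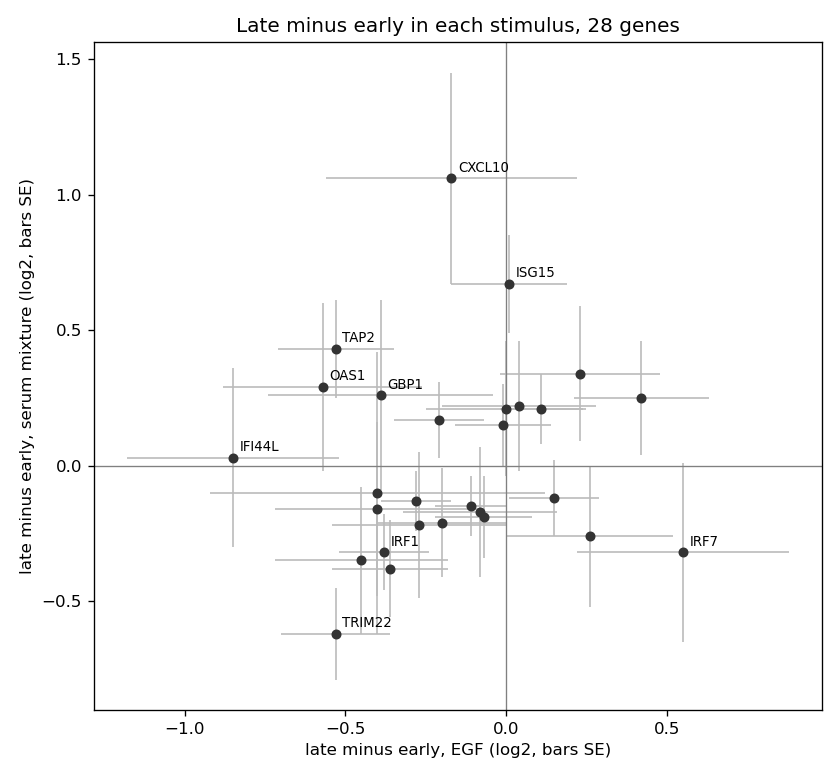
Late minus early log2 difference in EGF (horizontal) against that in serum (vertical) for the 28 tested genes. TRIM22 lies below 0 on both axes, at -0.53 and -0.62, and CXCL10 and ISG15 are the highest on the serum axis, at 1.06 and 0.67.

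The chemokine CXCL10, a ligand of CXCR3 that draws activated T cells, showed the widest separation between the stimuli among the 28, although it did not pass the threshold. Its signal (probe set 204533_at) was 43.2 unstimulated. After EGF it was 44.5, 22.3, 15.8, 34.1, 22.5 and 10.1, and after serum 29.7, 42.7, 60.2, 105.4, 100.5 and 63.1. From 40 min on, every EGF array was below the unstimulated one, while the 3 late serum arrays were all above it and above every EGF array. EGF minus serum was 0.74 at 20 min and then -0.86, -1.60, -1.50, -1.87 and -2.04. The late difference was -1.81 (SE 0.40, 3.5-fold, 95% interval -2.75 to -0.86, adjusted p = 0.0915), and over all 6 times it was -1.19 (SE 0.34, 2.28-fold, adjusted p = 0.13). CXCL10 passed for the late part without both arrays of 20 min (adjusted p = 0.0295, 44 genes called). Of these arrays, 1 carries 2 times in its labels. CXCL10 then passed over all times as well (-1.59, adjusted p = 0.0231, 29 genes called). The late difference hardly moved (-1.82), while its SE fell to 0.18, as the pair of 20 min no longer entered the scatter. Leaving out either array of 20 min removed this same pair and is no separate check. The late part of CXCL10 passed too with an offset of 24 (166 genes called), with a variance trend (554) and without the time block (144). In 16 of 22 alternatives the late part stayed uncalled, and in 17 of 22 the difference over all times did. The late adjusted p ran from 0.00778 to 0.288 and the late difference from -2.097 to -1.315. Some EGF signals were under 20, so its size depends on the offset, with -1.315 at an offset of 24.

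Over all genes 0.75% were called for EGF minus serum in the late part, and 0 of the 28 members. At an unadjusted p under 0.05 there were 6 members, against 18.9% of all genes. The members' median was -0.15 against 0.01, with 20 of 28 below 0. Late EGF and late serum arrays, 3 of each, did not overlap for CXCL10, IFITM2 and TAP2 (EGF below, as for 10.8% of all genes) and for BST2 and IRF7 (EGF above, 11.7%). Over all times 0 were called (5 unadjusted against 20.6% of all genes, 0.129% called), and in the early part also 0 (4 unadjusted against 14.4%, 0% called). The interaction of stimulus and phase, which tests whether the early and late differences are unlike, gave 0 as well (4 unadjusted against 11.2%, 0.0259% called). With a variance trend, BST2, CXCL10 and IFITM2 were called over all times, among 424 called of the 7731 genes. In the late part CXCL10 and GBP1 were called with it, among 554 genes.

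**Figure D4:**
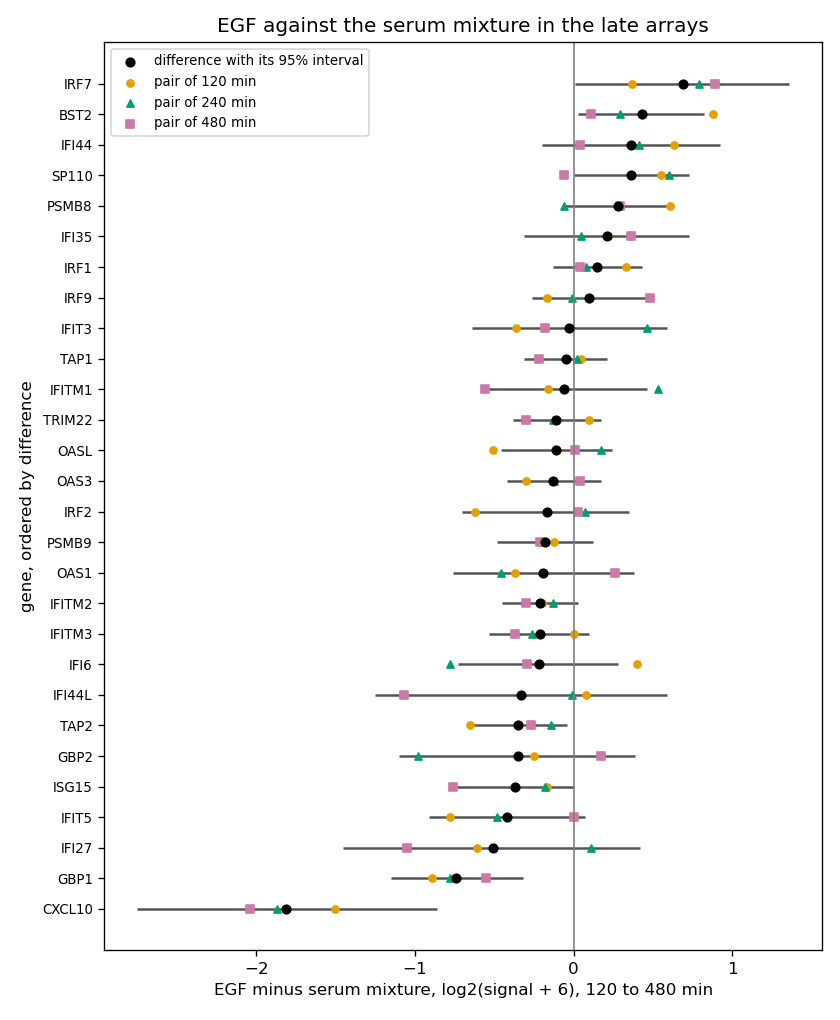
EGF minus serum log2 difference in the late part (120 to 480 min, 3 pairs) for the 28 tested genes, with black points for the fitted difference, bars for its 95% interval and coloured marks for the 3 pairs. CXCL10 is lowest at -1.81 and IRF7 highest at 0.69, and no gene passed the adjusted threshold.

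CXCL11, a second CXCR3 ligand whose gene lies near CXCL10 on chromosome 4, was dim and not among the tested genes. Its signal was 0.5 unstimulated, 19, 18, 4.5, 10.1, 10.3 and 5.6 after EGF and 8.8, 10.2, 19.9, 34.9, 42.1 and 28.1 after serum. The 3 late serum arrays were its only ones above 20. Its other probe set measured 26.4, 28.7 and 18.3 on those arrays and 8.9, 6.9 and 10.6 on the late EGF arrays. In the fit without a filter, the late EGF minus serum difference was -1.50 (SE 0.41, adjusted p = 0.258). Values this low are near the limit of the arrays, and detection calls were not used here.

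GBP1, an interferon-inducible GTPase that coats intracellular pathogens, was read by 2 probe sets. The brighter one, 202269_x_at, measured 274.3 unstimulated, 334.5, 533.1, 484.7, 411.3, 368.1 and 277 after EGF, and 268.3, 555.6, 724.9, 751.7, 617.6 and 399.1 after serum. Both stimuli showed higher signals at 40 to 240 min than the unstimulated array, serum to a higher peak, and both were nearer to it by 480 min. Late EGF and late serum overlapped on this probe set, with EGF minus serum at -0.74 (SE 0.17, 1.67-fold, adjusted p = 0.108). The mean of both stimuli against the unstimulated array was 1.12 at 60 min (SE 0.35, 2.17-fold, adjusted p = 0.529).

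The second GBP1 probe set, 202270_at, was examined after the first had been seen. It measured 182.1 unstimulated, 129.2, 193.6, 187.5, 156.8, 250.5 and 93.3 after EGF, and 206.5, 241.9, 367.9, 490.8, 533.3 and 306.1 after serum. Here each serum array was above the EGF array of its time and the late arrays did not overlap. EGF minus serum was -1.46 in the late part (SE 0.18, 2.75-fold, adjusted p = 0.03 with limma over 13329 probe sets), so GBP1 signal was lower in EGF than in serum on this probe set. The brighter probe set is of the _x_at kind, and which transcripts each reads was not tested. GBP1 was called as well with the mean of its probe sets (41 genes called) and with the stricter filter (285 called). GBP2, a relative, measured 119.1 unstimulated, 48.8 to 126.3 after EGF and 67.4 to 139.5 after serum, and the stimuli overlapped.

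**Figure D5:**
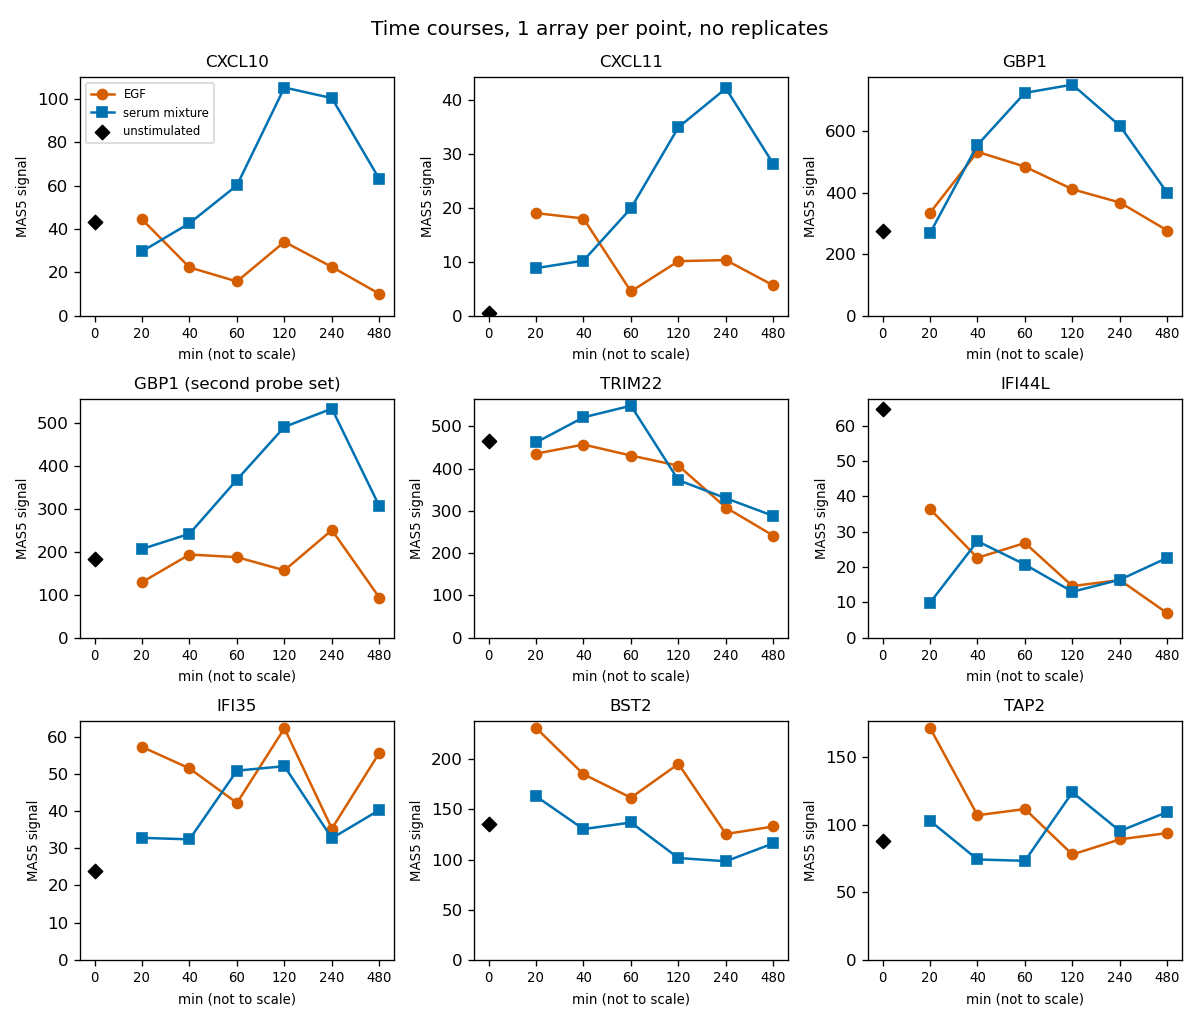
Deposited MAS5 signal against minutes of stimulation for selected interferon response genes, with EGF and serum as separate lines, the unstimulated array at 0 min and times evenly spaced, not to scale. CXCL10 reaches 105.4 in serum and 10.1 in EGF, and TRIM22 ends at 241.2 in EGF and 288 in serum, from 465.

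A few members were placed with EGF above serum. BST2, or tetherin, which holds budding virions at the cell surface, measured 135.6 unstimulated, 231.5, 185.2, 161.8, 195.5, 125.5 and 133 after EGF, and 163.2, 130.4, 137, 101.5, 98.3 and 116.2 after serum. EGF was above serum in 6 of 6 pairs, as for 6.08% of all genes, by 0.41 (SE 0.11, 1.33-fold, adjusted p = 0.113). IRF1 also had EGF above serum in 6 of 6 pairs, although its pairs of 40, 240 and 480 min differed by at most 0.08. IRF7, the factor that amplifies type I interferon, measured 58.9 unstimulated, 61.7, 49.4, 19.3, 59.9, 60.6 and 59.3 after EGF, and 71, 29.5, 45.6, 44.5, 30.7 and 27.7 after serum. Its late EGF arrays were all slightly above the unstimulated one and its late serum arrays all below it, with EGF minus serum at 0.69 (SE 0.28, 1.61-fold, adjusted p = 0.258).

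IFITM2 was placed the other way. Its signal was 1702.8 unstimulated, with a range of 1450.8 to 1808.5 after EGF and 1726.3 to 2292.7 after serum. On the normalized scale the 6 EGF and the 6 serum arrays did not overlap, EGF below, which 1.33% of all genes showed (6.86% were below in 6 of 6 pairs), and the difference was -0.23 (SE 0.07, 1.18-fold, adjusted p = 0.149). No member had all 6 EGF arrays above all 6 serum arrays (0.828% of all genes). IFITM3 measured 2458.7 unstimulated, 2464.1 to 3850.4 after EGF and 2268.6 to 3647.9 after serum, and the stimuli overlapped. IFIT5, a member of the tetratricopeptide family that binds viral RNA, measured 91.5 unstimulated, 81.2 to 105.2 after EGF and 75.5, 126.8, 142.6, 183.3, 143.2 and 96.4 after serum. Serum was highest at 120 min and EGF nearly flat, with EGF minus serum over all times at -0.37 (SE 0.14, 1.29-fold, adjusted p = 0.204). Its second probe set, 203596_s_at, was highest at 240 min of serum (74.7, against 53.9 at 120 min) and gave -0.03 (SE 0.16, adjusted p = 0.928).

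TAP2, the partner of TAP1 in the peptide transporter, lay on opposite sides in the 2 phases without passing a test. Its signal was 88.3 unstimulated, 171.9, 107.1, 111.7, 78, 89.2 and 93.9 after EGF, and 103, 74.3, 73.3, 124.1, 95.4 and 109.5 after serum. Early EGF arrays were all above early serum arrays and late ones all below. The late placing held for 10.8% of all genes, and the share for the early one was not counted. EGF minus serum was 0.60 early (SE 0.13, adjusted p = 0.165) and -0.35 late (SE 0.13, adjusted p = 0.229), and the interaction was -0.96 (SE 0.19, adjusted p = 0.227). Its second probe set, 204770_at, did not show this: it measured 72.5 unstimulated and 78.1 to 105.9 on the 12 stimulated arrays, with EGF minus serum at 0.03 early (SE 0.14), -0.12 late (SE 0.14) and an interaction of -0.14 (SE 0.20, adjusted p = 0.828 over 13329 probe sets). OAS1, a 2-5A synthetase, measured 47.1 unstimulated and 93, 70.6 and 51.3 on the early EGF arrays against 40.6, 60.5 and 33 on the early serum arrays, a difference of 0.67 (SE 0.24, adjusted p = 0.292). Its second probe set, 205552_s_at, gave -0.03 (SE 0.24, adjusted p = 0.969). SP110, a nuclear body protein gene, had late EGF signals of 140.3, 125.2 and 107.2 against 92.2, 76.9 and 106.9 in serum, a difference of 0.36 (SE 0.15, adjusted p = 0.269). Another 2 probe sets of SP110 gave 0.28 (SE 0.12, adjusted p = 0.266) and 0.09 (SE 0.11, adjusted p = 0.688).

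The remaining tested members were IFIT3, IFITM1, IRF2, PSMB8 and PSMB9. Their signals ran from 34 to 75 for IFIT3, 83.6 to 197.7 for IFITM1, 40.4 to 80.3 for IRF2, 82.2 to 142.7 for PSMB8 and 50.3 to 78.6 for PSMB9. None of these 5 reached an unadjusted p under 0.05 in any comparison. PSMB8 and PSMB9 encode immunoproteasome subunits, and IRF2 a factor that competes with IRF1. Among the dim genes, IFIT1 ran from 1.7 to 57.5, MX1 from 5.6 to 29.1, MX2 from 1 to 28.1, OAS2 from 1.4 to 29.4, IFIT2 from 4.2 to 35.8 and ISG20 from 9.3 to 34.1. These are canonical antiviral effectors, and each lay under a signal of 20 on some arrays and above it on others in both stimuli, except MX2, which did so in serum and was at most 15 after EGF.

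Upstream of the list, 14 genes for interferon receptors, JAK kinases and STAT factors were tested, and 2 of them fell from early to late, IFNGR1 and STAT3, with none higher (1.79% of all genes were called lower). IFNGR1, the ligand-binding chain of the interferon gamma receptor, measured 2479.5 unstimulated, 2688.6, 2818.9, 2423.2, 2278.3, 1824.4 and 1637.5 after EGF, and 2642.4, 2884.8, 2865.1, 2217.1, 1396.6 and 2010.5 after serum. All late arrays were below all early ones, as for 1.63% of all genes, and the difference was -0.54 (SE 0.11, 1.45-fold, adjusted p = 0.0315). STAT3, a factor of interleukin-6 signalling, differed by -0.31 (SE 0.07, 1.24-fold, adjusted p = 0.045). Over the alternatives the adjusted p ran from 0.00432 to 0.0977 for IFNGR1, 10 of 23 of which ended the call, and from 0.0159 to 0.128 for STAT3, 16 of 23 of which did.

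Of 19 interferon and related ligand genes, 16 had a probe set and 3 were tested, with 0 called from early to late or between the stimuli. IFNB1, the first type I interferon of epithelial cells, had a mean signal of 6.35 and at most 18.2. Among 13 tested brakes on interferon signalling, 0 were called from early to late over both stimuli (3.47% of all genes were called). SOCS1, an inhibitor of JAK kinases, was lower in late EGF than in late serum arrays (-1.34, SE 0.15, adjusted p = 0.022, 0.75% of all genes called). Its late minus early difference in EGF was -1.63 (SE 0.20, adjusted p = 0.0132, 0.259% of all genes called, lost in 4 of 20 alternatives, with adjusted p up to 0.105). The interaction was -2.54 (SE 0.22, adjusted p = 0.0381, 0.0259% of all genes called, lost in 16 of 21 alternatives, with adjusted p up to 0.253). Its signal was 44.1, 49.4, 44.5, 12.2, 7.4 and 11 after EGF and 27.6, 13.1, 14.2, 46.7, 23.1 and 37 after serum, from 31.1 unstimulated. All 3 late EGF signals were under 20, near the limit of the arrays, so the sizes of these differences depend on the offset: over the alternatives the late one ran from -1.77 to -0.80. Thus late SOCS1 and late CXCL10 both had serum above EGF, and their relation was not tested. Leaving out either array of 40, 120, 240 or 480 min ended the late call for SOCS1, with adjusted p from 0.0597 to 0.13. Each such omission took out the pair of that time, so the 2 of a time are not separate checks. The late call was also lost with no filter (0.0897).

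Another 25 tested interferon-stimulated genes outside the list gave 1 call from early to late, with a median of -0.02, where 3.47% of all genes were called. It was LGALS3BP, a secreted glycoprotein gene (-0.38, SE 0.08, adjusted p = 0.0364, lost in 12 of 23 alternatives). The differences of this list ran from -1.96 to 0.44. TNFSF10, not called, measured 241.1 unstimulated, 296, 233.2, 174.8, 146, 39.7 and 103.4 after EGF, and 309.1, 289.7, 255.4, 182.1, 18.6 and 18 after serum. Of 14 tested genes of MHC class I presentation, 0 passed and 13 were below 0, with a median of -0.08, while 52.7% of all genes were above 0. Several HLA genes among the 14 are read by _x_at probe sets, whose probes can match related transcripts, so they may not be separate readings. None of 11 sensors of nucleic acids or of 3 other IRF genes passed from early to late. At an unadjusted p under 0.05 those 3 lists held 3, 2 and 0 genes, at or below the 23.9% of all genes. Of 14 tested NF-kB targets, 2 were lower late, where 1.79% of all genes were called lower. They were CXCL2 (4-fold, adjusted p = 0.0029) and NFKBIA (-0.53, SE 0.12, adjusted p = 0.0378, lost in 13 of 23 alternatives). CXCL8, a neutrophil chemokine, was higher in late EGF than in late serum (1.48, SE 0.21, adjusted p = 0.0443, 0.75% of all genes called, lost in 11 of 23 alternatives), the side opposite to CXCL10. The NF-kB targets did not share 1 side there: 8 were above 0 and 6 below, from -1.15 to 1.77. NFKBIA lay on the side of CXCL10, with 612.9, 584.3 and 794.6 in late EGF against 1490.2, 1239.9 and 1181 in late serum.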

How the data were processed

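RNA of MCF10A cells was measured on 13 Affymetrix arrays of 22277 probe sets. The deposited values are intensities on a linear scale, computed by the authors with MAS5 per the submitters' processing notes, and its version is not given in the sources used here. Gene symbols came from the platform annotation: 19064 probe sets carried 1 symbol, 1043 several and 2108 none, beside 62 controls, and only the first kind was used.

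Signals were transformed as log2 of signal plus 6 and quantile normalized. A gene was tested if the mean of its brightest probe set was at least 4.68, the 40th percentile over probe sets (7731 of 11963 genes). Linear models (lmFit and eBayes of limma 3.58.1 in R 4.3.3) compared each time with the unstimulated array (additive time and stimulus, 5 degrees of freedom), late with early arrays (phase by stimulus, 8), and EGF with serum arrays of the same time (time as a block, 5 over all times, 4 by phase). Benjamini and Hochberg adjustment ran over all tested genes. The procedure was tested on simulated data.

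All members could be named. Those past the threshold and the 3 largest differences each way in 9 comparisons were described with their signals, on every array or, for IFI44, IFI6, OASL, OAS1 and SP110, as ranges or part of the arrays. IRF1 and the dim CXCL11 (every array) and OAS3, TAP1, IRF9, IFITM2, IFITM3 and GBP2 (ranges or part of the arrays) were added after values were seen. Pathway genes were named when past the threshold, with IFNB1 and TNFSF10 added. The members and lists were chosen with earlier results of these data known. Alternatives changed the offset, normalization, filter, probe set rule, variance model, fold minimum, time coding and arrays included. The second GBP1 probe set and the fit over all probe sets were added after the data were seen. Promoter sequences came from RefSeq (GRCh38.p14). Python 3.11.15, pandas 2.3.3, numpy 2.4.6, scipy 1.17.1 and matplotlib 3.10.9 made the other tables and figures.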

Additional observations from a re-analysis of the deposited data

Results flagged for a closer look

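For 3 of the 28 tested members, the late EGF arrays and the late serum arrays lay on opposite sides of the unstimulated array, as for 4.62% of all genes (357 of 7731). In the early part this held for 0 members and 3.89% of all genes. CXCL10 lay between -1.33 and -0.17 in late EGF and between 0.72 and 1.34 in late serum, with a difference of their means of -1.81 (adjusted p = 0.0915 with limma). IFITM2 lay between -0.30 and -0.06 in late EGF and between 0.01 and 0.14 in late serum, with a difference of -0.21. IRF7 lay between 0.16 and 0.19 in late EGF and between -0.72 and -0.22 in late serum, with a difference of 0.69 (adjusted p = 0.258). All 3 placings share the single unstimulated array, and whether the 2 sides differ from it in opposite directions was not tested.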

How the results depend on the processing

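Results were recomputed under 24 alternative settings. The count of members called from early to late over both stimuli, 1 as reported, was 2 without quantile normalization and with the stricter filter, and 0 with no filter, with a minimum of 1.5-fold and without both arrays of 20 min. It ran from 0 to 4 when single arrays were left out, with 56 to 437 genes called. Late minus early in serum, 0 as reported, gave 1 with the stricter filter (295 genes called) and 2 with a variance trend (419). EGF minus serum in the late part, 0 as reported, gave 1 with an offset of 24 (166 genes called), with the stricter filter (285) and with probe sets of a gene averaged (41). It also gave 1 without both arrays of 20 min (44) and with no time block (144), and 2 with a variance trend (554). It ran from 0 to 1 over single omissions, the 1 being CXCL10 without either array of 20 min. EGF minus serum over all times, 0 as reported, gave 3 with a variance trend (424 genes called) and 1 without both arrays of 20 min (29). It gave 1 with no time block (253) and 0 to 1 over single omissions. The response at 480 min gave 1 with a variance trend (46 genes called). The early EGF minus serum difference of IFI44L, 0.55, was -0.003 without the serum array of 20 min and likewise without both arrays of 20 min, and ran from -0.003 to 0.989 over single omissions. Of 103 results of single genes, 2067 values stayed on the same side of zero and threshold, 112 lost a call, 26 gained one and 2 reversed. The variance trend called 658 genes from early to late and the stricter filter 576, against 268 as reported, 67 with no filter, 71 without both arrays of 20 min, 100 with a minimum of 1.5-fold and 147 with time as a factor. EGF and serum arrays were paired by time, as a block in the reported fit, and only the setting with no time block dropped that pairing. In fits of EGF against serum, leaving out 1 array also took out the other array of its time. The 2 omissions of a time are therefore nearly the same setting there, and tallies of alternatives count both. The number of arrays and, for the 7 dim genes, signals near background limit these results, and the causes of the shifts were not tested.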
